A study of Homo sapiens with 12 samples.

Results

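Rab GTPases are the small GTP-binding proteins that mark the membranes of the secretory and endocytic pathways, and their mRNAs were followed here at 3 doses of 2,8-dihydroxyadenine and in control cells. The members are the protein-coding genes whose symbol is RAB, a number and an optional letter, RAB1A to RAB43, after the deposited transcripts were summed per gene. The rule uses names alone and found 62 genes among the 57527 genes summed, of which 53 passed the filter for testing (3 or more libraries at 1 or above). The purine 2,8-dihydroxyadenine (DHA) dissolves poorly and forms crystals in kidney tubules of people who lack adenine phosphoribosyltransferase, and the series asks what it does to kidney epithelial cells. HK-2, an established human line labelled as proximal tubule epithelium, received DHA in the medium at 60, 120 or 240 ug/ml for 72 h. No label says whether control cells received a vehicle, and no vehicle control is described. Each of the 4 groups held 3 poly(A)-selected RNA libraries, and no label states that these came from separate cultures, so p-values measure a spread between libraries that may be technical.

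A Rab protein is inactive in its GDP form, held in the cytosol by GDI, and becomes active on a membrane when an exchange factor (GEF) loads GTP. In that form it recruits effectors such as tethers, motors and sorting adaptors, until a GTPase-activating protein (GAP) ends the cycle. The membrane anchor is a geranylgeranyl lipid on cysteines at the end of the protein, added by Rab geranylgeranyl transferase with an escort protein. Proximal tubule cells use these routes for the apical endocytosis of filtered proteins, for recycling of receptors to the surface, and for delivery of membrane to junctions and cilia.

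All values below are the deposited normalized signal, read as TPM divided by a library factor, and a level comparison between genes rests on that reading. Read depth is unknown because the table holds no counts. The total signal ran from 1143850 to 1228979 in the control libraries, from 984048 to 1060084 at 60, from 875886 to 962259 at 120, and from 791808 to 969479 at 240 ug/ml, so totals moved with dose. Library pairs of a group correlated across genes at r from 0.978 to 0.985. Epithelial keratins and EPCAM and the kidney gene PAX8 were present, while CDH1, PAX2 and 6 of 8 markers of mature proximal tubule (LRP2, CUBN, AQP1, SLC34A1, SLC22A6 and ANPEP) averaged below 1, so the line carried kidney epithelial transcripts but few of the mature tubule. The summed mature tubule markers ran from 160.3 to 195 in control, 151 to 206 at 60, 98.2 to 137 at 120, and 89.4 to 122 at 240 ug/ml, and the summed fibroblast and muscle markers from 21.0 to 23.1, 8.70 to 15.2, 5.20 to 7.20, and 5.90 to 6.10. The first sum was almost all GGT1, with means of 176 in control and 99.5 at 240 ug/ml. Most of the second was COL1A1, with means of 17.5 in control and 4.70 at 240 ug/ml. Of the 3 immune markers PTPRC and CD3E were listed at 0 in all 12 libraries, and the macrophage and lysosome gene CD68 made up the sum, which ran from 109.7 to 139.6 in control, 86.3 to 146 at 60, 82.8 to 122 at 120, and 72.2 to 99.0 at 240 ug/ml. The 2 neuronal markers SNAP25 and SYT1 summed to 16.1 to 17.5 in control, 12.3 to 15.1 at 60, 11.4 to 11.9 at 120, and 10.9 to 12.2 at 240 ug/ml. All 4 of these sums at 240 ug/ml lay below control in the deposited scaling, in which library totals were lower too. The epithelial sum overlapped control, at 691 to 735 in control and 631 to 722 at 240 ug/ml. So did the kidney lineage sum, at 364 to 402 and 352 to 428. The part of any of these sums in the Rab results was not tested. Endothelial markers summed to at most 0.400 in any library.

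Taken as a family, Rab mRNAs formed a smaller signal in DHA libraries and a share of it close to control or above it. The 62 genes summed to 2727, 2775 and 2611 in control, 2313, 2324 and 2303 at 60, 2121, 2008 and 2314 at 120, and 2273, 1981 and 2298 at 240 ug/ml, so no DHA library reached the lowest control. As a share of all summed genes they held 0.241% ± 0.00508 in control, 0.237% ± 0.00940 at 60, 0.247% ± 0.00728 at 120, and 0.263% ± 0.0123 at 240 ug/ml (SD, n = 3 each), and here the 240 ug/ml libraries lay above control. A gene's direction against control can therefore turn on the scaling, so values are given also with every library set to an equal total. That moves the median limma log2 fold change of all 16789 tested genes to 0.13, 0.27 and 0.33 at 60, 120 and 240 ug/ml, against -0.03 at each dose as deposited. In bulk RNA, fewer cells of one kind and less RNA per cell cannot be told apart.

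By the mean over all 12 libraries, the highest Rab levels belonged to RAB7A (243), RAB13 (222) and RAB5C (193). RAB7A directs late endosomes and autophagosomes to fuse with lysosomes. RAB7A is ENSG00000075785.12 on the plus strand of chromosome 3, GRCh38, 128726122 to 128814796. It had 243, 260.2 and 258 in control, 229, 239.5 and 224 at 60, 220.2, 202 and 270.5 at 120, and 257, 219 and 293 at 240 ug/ml. Its 240 ug/ml and control libraries overlapped, at a log2 fold change of 0.01 (limma adjusted p = 0.972), and of 0.44 (limma adjusted p = 0.00322) with equal totals. RAB13, which carries junction proteins and other cargo to the cell surface, came next by this mean, followed by RAB5C, an early endosome Rab. In control alone RAB13 stood above RAB7A, with means of 344 and 254. The 5 highest members held 43.9% ± 0.640 of the Rab sum in control, 41.8% ± 0.319 at 60, 40.4% ± 1.17 at 120, and 39.5% ± 1.99 at 240 ug/ml. At the other end, 9 members did not pass the filter: RAB25, RAB33A, RAB37, RAB39B, RAB3C, RAB41, RAB6C, RAB6D and RAB7B. RAB25 is the epithelial member of the RAB11 group, and it reached at most 0.3 in any library. RAB6C and RAB6D, close copies of RAB6A, were listed at 0 in all 12 libraries, and whether reads of theirs were given to RAB6A was not tested. The highest of the 9 was RAB7B, a late endosome and Golgi Rab, which had 0.9, 0.5 and 0.6 in control, 0.3, 0.5 and 0.2 at 60, 0.2, 0.3 and 0.1 at 120, and 0.1, 0.1 and 0.2 at 240 ug/ml, untested.

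Against control, 11 of the 53 tested members were called at 60 ug/ml (20.8%; limma adjusted p under 0.05 over all genes), close to the 18.9% of all tested genes. Of these, 1 was higher (8.89% of all genes were) and 10 were lower (10.0% of all genes). At 120 ug/ml 21 were called (39.6%, against 36.7% of all genes), 4 higher (15.9% of all genes) and 17 lower (20.8% of all genes). At 240 ug/ml 24 were called (45.3%, against 43.1% of all genes), 6 higher (19.7% of all genes) and 18 lower (23.5% of all genes). The shares called were thus near those of all genes, and by direction they leaned lower in the deposited scaling. Lower were 18.9%, 32.1% and 34.0% of members at the 3 doses, and higher were 1.89%, 7.55% and 11.3%. The median log2 fold change of the 53 members was -0.05, -0.18 and -0.14 at the 3 doses, beside -0.03, -0.03 and -0.03 over all genes. With equal library totals the split turned to 3 higher and 4 lower at 60 (16.0% and 3.98% of all genes), 11 and 6 at 120 (36% and 8.21%), and 20 and 6 at 240 ug/ml (43.1% and 9.05%). More of all genes, too, were called higher than lower in this scaling. The members' medians became 0.12, 0.15 and 0.26, beside 0.13, 0.27 and 0.33 over all genes. In both scalings the members' medians thus lay below those of all genes. Libraries did not overlap control for 3 members above it and 16 below it at 60 ug/ml (16.2% and 20.3% of all genes), 6 and 23 at 120 (21.7% and 27.3%), and 9 and 23 at 240 ug/ml (24.2% and 28.7%). By an F test over the 4 groups 31 members differed (58.5%, against 42.7% of all genes). With the GC trend of each library subtracted these were 20 (37.7%, against 38.6% of all genes), and without control replicate 2 they were 21 (39.6%, against 34.2% of all genes), the lowest count with 1 library left out. Fold changes were modest: past a log2 fold change of 1 were 0 called members at 60, 2 at 120 and 2 at 240 ug/ml, among 222, 896 and 1223 genes in all. The 3 comparisons share the control libraries, so they are not independent of each other.

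Single libraries moved these counts at the lower doses. The 11 calls at 60 ug/ml became 5 without control replicate 1, 7 without control replicate 3, 5 without the first and 6 without the third 60 ug/ml library. The 21 calls at 120 ug/ml became 13 without the first and 11 without the second 120 ug/ml library. At 240 ug/ml the count stayed between 20 and 25 whichever library was left out. Calls held without any 1 library of either group for 4 of 11 members at 60 ug/ml (RAB2A, RAB5A, RAB11A and RAB13), for 10 of 21 at 120 ug/ml, and for 19 of 24 at 240 ug/ml, and the adjusted p of a lost call (limma) reached 0.115, 0.133 and 0.147. Of the 53 members, 8 were called lower at all 3 doses (RAB1A, RAB2A, RAB5B, RAB9A, RAB9B, RAB11A, RAB13 and RAB32), 0 were called higher at all 3, and 23 were called at none. These were 15.1%, 0% and 43.4% of the tested members, beside 7.93%, 6.71% and 50.2% of all genes. With equal totals 2 were called lower at all 3 doses (RAB13 and RAB32, 2.92% of all genes) and 2 higher (RAB12 and RAB35, 14.4% of all genes). Calls kept with equal totals were 5 of 11 at 60 ug/ml (RAB2A, RAB11A, RAB13, RAB32 and RAB35). At 120 ug/ml they were 10 of 21 (RAB3B, RAB5B, RAB9B, RAB11A, RAB12, RAB13, RAB17, RAB32, RAB35 and RAB39A). At 240 ug/ml they were 12 of 24 (RAB3B, RAB5B, RAB8B, RAB9B, RAB12, RAB13, RAB14, RAB17, RAB19, RAB21, RAB32 and RAB39A).

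**Figure D1:**
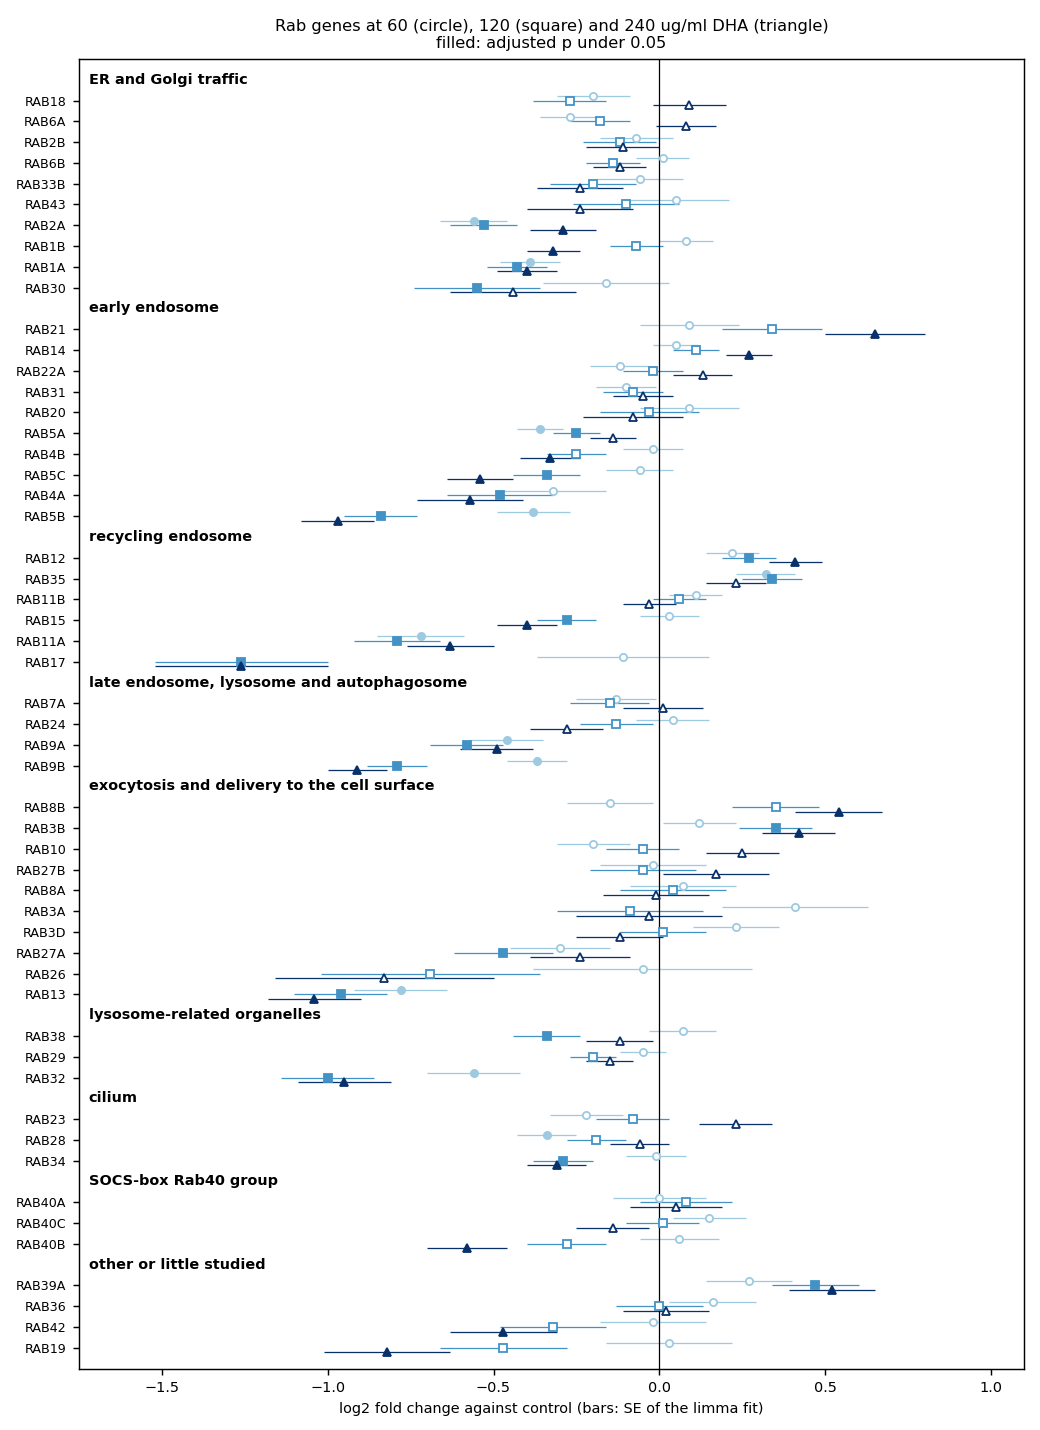
Log2 fold change against control of the 53 tested Rab genes on the x axis, grouped down the page by the membrane they serve, at 60 (circles), 120 (squares) and 240 ug/ml DHA (triangles). Bars are the SE of the limma fit and filled marks are calls at an adjusted p of 0.05. Most filled marks lie left of 0 in this deposited scaling. With equal library totals 20 members are higher and 6 lower at 240 ug/ml (43.1% and 9.05% of all genes).

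Among the 10 tested Rabs of the endoplasmic reticulum and Golgi, RAB1A, RAB1B and RAB2A were called lower at 240 ug/ml and 0 were called higher, but all 3 changed sign with equal totals, where RAB6A, RAB6B and RAB18 were called higher. RAB1A and RAB1B drive transport from the endoplasmic reticulum to the Golgi, and RAB2A acts between the Golgi and the vesicles around it. RAB1A had 179, 167 and 174 in control, 131, 131 and 135 at 60, 127, 116 and 143 at 120, and 141, 116 and 139.6 at 240 ug/ml. Every DHA library lay below control, and the 240 ug/ml value was -0.40 (SE 0.09, limma adjusted p = 0.00512), or 0.04 with equal totals. RAB1B was lower at 240 ug/ml (-0.32, limma adjusted p = 0.00604) and not at 60 (0.08) or 120 ug/ml (-0.07). RAB2A had its lowest values at the smaller doses, -0.56, -0.53 and -0.29 at 60, 120 and 240 ug/ml. The last of these calls was lost without 240 ug/ml replicate 2 or control replicate 1, 2 or 3 (limma adjusted p then 0.0652 to 0.147). RAB30, a Golgi Rab, was called lower at 120 ug/ml alone (-0.55, limma adjusted p = 0.0390). This call was lost without 120 ug/ml replicate 1, 2 or 3 or control replicate 1, 2 or 3 (limma adjusted p then 0.0573 to 0.118) and with equal totals, at -0.31 (limma adjusted p = 0.202). The remaining 6, RAB2B, RAB6A, RAB6B, RAB18, RAB33B and RAB43, were called at no dose against control. RAB43 shares exons with the read-through gene ISY1-RAB43.

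Early endosome Rabs held both directions: of 10 tested, RAB5B, RAB5C, RAB4A and RAB4B were called lower at 240 ug/ml and RAB21 and RAB14 higher, whereas equal totals left 1 lower (RAB5B) and 5 higher. The RAB5 proteins set up the early endosome and its fusion, and the 3 RAB5 genes followed the dose in different ways. RAB5B had 94.3, 102 and 96.4 in control, 78.7, 82.6 and 63.8 at 60, 59.5, 56.3 and 47.2 at 120, and 53.2, 47.5 and 47.0 at 240 ug/ml. RAB5B is ENSG00000111540.15 on the plus strand of chromosome 12, 55973913 to 55996683. Every DHA library lay below every control library and the means followed the dose, and the 240 ug/ml value was -0.97 (SE 0.11, limma adjusted p = 5.92e-05), or -0.54 (limma adjusted p = 0.00166) with equal totals. The 60 ug/ml call (-0.38) was lost without 60 ug/ml replicate 1 or 3 or control replicate 1, 2 or 3 (limma adjusted p then 0.0559 to 0.0975). RAB5C had 223, 227 and 223 in control, 213, 213 and 219 at 60, 178, 162 and 192 at 120, and 173, 133 and 159.6 at 240 ug/ml. RAB5C is ENSG00000108774.14 on the minus strand of chromosome 17, 42124976 to 42155044. Its 120 and 240 ug/ml libraries lay below control, at -0.34 and -0.54 (SE 0.10, limma adjusted p = 0.00105), but with equal totals the 240 ug/ml value was -0.11 (limma adjusted p = 0.256). The 120 ug/ml call was lost without 120 ug/ml replicate 2 or control replicate 2 (limma adjusted p then 0.0526 to 0.0696). RAB5A was instead lowest at 60 ug/ml, at -0.36 (limma adjusted p = 0.00607), was at -0.25 (limma adjusted p = 0.0186) at 120 ug/ml, and was not called at 240 ug/ml (-0.14, limma adjusted p = 0.143). With equal totals RAB5A was not called at 60 ug/ml, at -0.16 (limma adjusted p = 0.234), or at 120 ug/ml, at 0.11 (limma adjusted p = 0.328), and was called higher at 240 ug/ml, at 0.29 (limma adjusted p = 0.0167). RAB4A, of the fast recycling route, was at -0.57 (limma adjusted p = 0.0114) at 240 ug/ml. This call was lost without control replicate 2 (limma adjusted p then 0.0531). RAB4B was at -0.33 (limma adjusted p = 0.0127), lost without 240 ug/ml replicate 2 or control replicate 1 (limma adjusted p then 0.0513 to 0.0581). Both share exons with other annotated genes (SPHAR and MIA-RAB4B) and neither was called with equal totals, where RAB4B changed sign.

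RAB21, which moves with integrins through endosomes, had the highest log2 fold change of the family at 240 ug/ml. RAB21 is ENSG00000080371.5 on the plus strand of chromosome 12, 71754874 to 71800285. It had 23.5, 23.1 and 27.2 in control, 24.1, 22.8 and 32.3 at 60, 31.3, 27.2 and 36.3 at 120, and 34.1, 38.0 and 46.4 at 240 ug/ml. The 240 ug/ml libraries lay above control, those at 60 ug/ml overlapped it and the lowest at 120 ug/ml equalled the highest control, and the log2 fold change was 0.65 (SE 0.15, limma adjusted p = 0.00473), or 1.07 (limma adjusted p = 2.81e-04) with equal totals. RAB14, which links endosomes with the Golgi, had 42.8, 41.3 and 42.1 in control, 42.4, 41.8 and 46.7 at 60, 46.0, 43.2 and 47.0 at 120, and 47.9, 51.8 and 53.2 at 240 ug/ml. RAB14 is ENSG00000119396.10 on the minus strand of chromosome 9, 121178137 to 121223014. This is a small and late difference, 0.27 (SE 0.07, limma adjusted p = 0.00825) at 240 ug/ml, and it was not called with the length trend (0.15, limma adjusted p = 0.0787) or the GC trend subtracted (0.14, limma adjusted p = 0.0601). RAB20, RAB22A and RAB31 were called at no dose as deposited. Equal totals made RAB22A (0.53, limma adjusted p = 0.00398) and RAB31 (0.38, limma adjusted p = 0.0110) higher calls at 240 ug/ml.

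Of the 6 tested recycling endosome Rabs, RAB17, RAB11A and RAB15 were called lower and RAB12 higher at 240 ug/ml; with equal totals RAB17 was lower and 3 were higher. RAB17, a Rab of polarised epithelia that serves transcytosis and apical recycling, showed the lowest log2 fold change of all 53 members. RAB17 is ENSG00000124839.12 on the minus strand of chromosome 2, 237574322 to 237601614. It had 8.9, 9.9 and 8.7 in control, 8.2, 14.2 and 4.9 at 60, 2.7, 3.8 and 3.3 at 120, and 2.9, 3.9 and 3.0 at 240 ug/ml. The 60 ug/ml libraries spread widely around control, and the 120 and 240 ug/ml libraries lay below every control and 60 ug/ml library, at -1.26 (SE 0.26, limma adjusted p = 0.00324) and -1.26 (SE 0.26, limma adjusted p = 0.00258). With equal totals the 240 ug/ml value was -0.89 (limma adjusted p = 0.0130). RAB11A, the general recycling endosome Rab that also feeds apical membranes and cilia, had 143, 155 and 143 in control, 84.2, 94.1 and 89.2 at 60, 80.0, 76.4 and 99.5 at 120, and 113, 76.4 and 99.2 at 240 ug/ml. RAB11A is ENSG00000103769.9 on the plus strand of chromosome 15, 65726054 to 65891991. All 9 DHA libraries were below control without order by dose, at -0.72, -0.79 and -0.63 (SE 0.13, limma adjusted p = 0.00302), and with equal totals the 240 ug/ml value was -0.20 (limma adjusted p = 0.118). RAB12, which sends the transferrin receptor from recycling endosomes to degradation, had 16.7, 16.3 and 15.5 in control, 18.0, 17.8 and 21.2 at 60, 20.0, 20.1 and 18.9 at 120, and 21.2, 21.8 and 22.6 at 240 ug/ml. RAB12 is ENSG00000206418.4 on the plus strand of chromosome 18, 8609437 to 8639382. Its DHA libraries lay above control at each dose, and calls were made at 120 (0.27) and 240 ug/ml (0.41, SE 0.08, limma adjusted p = 0.00140). The first of them was lost without 120 ug/ml replicate 1 or 2 or control replicate 3 (limma adjusted p then 0.0593 to 0.0635). RAB35, a fast recycling Rab, was the 1 member called higher at 60 ug/ml, at 0.32 (limma adjusted p = 0.0299). It was 0.34 (limma adjusted p = 0.0119) at 120 and 0.23 (limma adjusted p = 0.0524) at 240 ug/ml. Its 60 ug/ml call was lost without 60 ug/ml replicate 1 or 3 or control replicate 1 or 3 (limma adjusted p then 0.0501 to 0.103). RAB15 was lower at 120 (-0.28) and 240 ug/ml (-0.40, limma adjusted p = 0.00489), but 0.01 at 240 ug/ml with equal totals. Its 120 ug/ml call was lost without 120 ug/ml replicate 2 or 3 or control replicate 2 or 3 (limma adjusted p then 0.0554 to 0.133).

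In the late endosome and lysosome group, the RAB9 genes were called lower and RAB7A and RAB24 were not. RAB9A and RAB9B belong to the return route from late endosomes to the Golgi, used by mannose 6-phosphate receptors. RAB9B had 9.2, 8.4 and 9.4 in control, 6.7, 7.1 and 6.4 at 60, 4.6, 4.6 and 5.1 at 120, and 4.7, 3.9 and 4.4 at 240 ug/ml. RAB9B is ENSG00000123570.3 on the minus strand of chromosome X, 103822322 to 103832228. The control libraries stood above those at 60 ug/ml, which stood above the overlapping 120 and 240 ug/ml libraries. The log2 fold change was -0.37 at 60, -0.79 at 120 and -0.91 (SE 0.09, limma adjusted p = 3.35e-05) at 240 ug/ml, and the last was -0.53 (limma adjusted p = 9.62e-04) with equal totals. The 60 ug/ml call was lost without 60 ug/ml replicate 1 or 3 or control replicate 1 or 3 (limma adjusted p then 0.0502 to 0.0643). RAB9A had 57.0, 52.7 and 52.0 in control, 36.3, 39.1 and 41.7 at 60, 36.1, 31.4 and 40.3 at 120, and 38.4, 33.4 and 42.8 at 240 ug/ml. All 9 DHA libraries were below control (-0.49, SE 0.11, limma adjusted p = 0.00341, at 240 ug/ml), but the 240 ug/ml value was -0.07 (limma adjusted p = 0.606) with equal totals. RAB24, which takes part in autophagy, was -0.28 (limma adjusted p = 0.0590).

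Of the 10 tested Rabs of exocytosis and surface delivery, RAB13 was called lower and RAB8B and RAB3B higher at 240 ug/ml, and equal totals left RAB13 as the 1 lower and made 4 higher. RAB13 had 374, 351 and 308 in control, 193, 206 and 201 at 60, 172, 158 and 202 at 120, and 182, 132 and 190.2 at 240 ug/ml. RAB13 is ENSG00000143545.8 on the minus strand of chromosome 1, 153981617 to 153986358. The 9 DHA libraries, from 132 to 206, lay below the lowest control library at 308, and the log2 fold change was -0.78, -0.96 and -1.04 (SE 0.14, limma adjusted p = 1.50e-04) at the 3 doses, or -0.61 (limma adjusted p = 3.57e-04) at 240 ug/ml with equal totals. Its exons overlap those of AL358472.6 on the same strand, so reads of the shared bases could belong to either gene. How much of RAB13 is shared was not measured. RAB8B, a close relative of RAB8A in delivery to the basolateral surface and cilia, had 16.8, 17.5 and 22.1 in control, 15.9, 14.4 and 20.2 at 60, 23.8, 22.2 and 26.2 at 120, and 26.4, 26.5 and 29.9 at 240 ug/ml. RAB8B is ENSG00000166128.12 on the plus strand of chromosome 15, 63189469 to 63267782. The 120 and 240 ug/ml libraries were above control, and the call was at 240 ug/ml, at 0.54 (SE 0.13, limma adjusted p = 0.00622). RAB8A itself overlapped control at every dose (-0.01, limma adjusted p = 0.967, at 240 ug/ml). It was called higher at 240 ug/ml with equal totals, at 0.42 (limma adjusted p = 0.0362). RAB3B, of regulated exocytosis, had 17.0, 15.7 and 15.1 in control, 17.5, 17.1 and 17.5 at 60, 23.2, 21.4 and 17.6 at 120, and 22.5, 23.5 and 19.1 at 240 ug/ml. RAB3B is ENSG00000169213.6 on the minus strand of chromosome 1, 51907956 to 51990764. It was called at 120 (0.35) and 240 ug/ml (0.42, SE 0.11, limma adjusted p = 0.00748). The first call was lost without 120 ug/ml replicate 1 or 2 or control replicate 2 or 3 (limma adjusted p then 0.0611 to 0.0904). With the length trend subtracted the 240 ug/ml value was 0.15 (limma adjusted p = 0.229); its mean transcript length is 12844 nt. RAB27A, which docks secretory granules and exosome-bearing endosomes, was called lower at 120 ug/ml (-0.47, limma adjusted p = 0.0314). This call was lost without 120 ug/ml replicate 1 or 2 or control replicate 1 or 3 (limma adjusted p then 0.0584 to 0.123) and with equal totals, at -0.12 (limma adjusted p = 0.523). RAB26 had 5.2, 6.6 and 4.4 in control, 6.0, 8.1 and 2.6 at 60, 3.4, 4.1 and 1.7 at 120, and 2.8, 3.3 and 1.8 at 240 ug/ml. At 240 ug/ml its difference from control, -0.83 (SE 0.33, limma adjusted p = 0.0622), did not pass. RAB3A, RAB3D, RAB8A, RAB10 and RAB27B were called at no dose against control as deposited. RAB10 was called higher with equal totals at 120 ug/ml, at 0.32 (limma adjusted p = 0.0349), and at 240 ug/ml, at 0.68 (limma adjusted p = 3.18e-04).

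RAB32, which serves melanosomes, other lysosome-related organelles and mitochondria, was the 1 of 3 Rabs of that group called at 240 ug/ml. RAB32 is ENSG00000118508.4 on the plus strand of chromosome 6, 146543693 to 146554965. It had 66.4, 71.5 and 65.4 in control, 45.0, 49.8 and 42.5 at 60, 31.7, 28.5 and 40.7 at 120, and 37.5, 28.4 and 38.5 at 240 ug/ml. Every DHA library lay below control, at -0.56, -1.0 and -0.95 (SE 0.14, limma adjusted p = 2.57e-04) for the 3 doses. With equal totals the 240 ug/ml value was -0.53 (limma adjusted p = 0.00135). Its 60 ug/ml call was lost without 60 ug/ml replicate 1 or 3 or control replicate 2 (limma adjusted p then 0.0522 to 0.0567). RAB38 was called lower at 120 ug/ml alone (-0.34, limma adjusted p = 0.0251), lost without 120 ug/ml replicate 2 or 3 or control replicate 2 (limma adjusted p then 0.0609 to 0.10). It was not called with equal totals, at -0.02 (limma adjusted p = 0.917), or with the length trend subtracted, at -0.19 (limma adjusted p = 0.169). RAB29, a Rab of the LRRK2 pathway, was called at no dose as deposited (-0.15, limma adjusted p = 0.123, at 240 ug/ml). It was called higher at 240 ug/ml with equal totals, at 0.27 (limma adjusted p = 0.0236). Of the cilium Rabs, RAB34, needed for an early step of cilium formation, was lower at 120 (-0.29, limma adjusted p = 0.0284) and 240 ug/ml (-0.31, limma adjusted p = 0.0163), and 0.12 at 240 ug/ml with equal totals. Its 120 ug/ml call was lost without 120 ug/ml replicate 1, 2 or 3 or control replicate 1 or 2 (limma adjusted p then 0.0541 to 0.102). Its 240 ug/ml call was lost without 240 ug/ml replicate 2 or 3 or control replicate 1 or 2 (limma adjusted p then 0.0525 to 0.0654). RAB28, found in photoreceptor cilia, was called at 60 ug/ml alone (-0.34, limma adjusted p = 0.0287), lost without 60 ug/ml replicate 1 or 3 or control replicate 1 or 3 (limma adjusted p then 0.0787 to 0.115). With equal totals RAB28 was not called at 60 ug/ml, at -0.14 (limma adjusted p = 0.445). It was then called higher at 240 ug/ml, at 0.36 (limma adjusted p = 0.0223). RAB23, a brake on hedgehog signalling, was called at no dose against control as deposited. It was called higher at 240 ug/ml with equal totals, at 0.64 (limma adjusted p = 0.00400).

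In the RAB40 group, whose members carry a SOCS box and act as adaptors of a cullin ubiquitin ligase, RAB40B was called lower at 240 ug/ml. RAB40B is ENSG00000141542.10 on the minus strand of chromosome 17, 82654973 to 82698728. It had 12.1, 12.2 and 8.9 in control, 12.9, 10.1 and 11.6 at 60, 8.7, 8.9 and 8.9 at 120, and 7.5, 6.4 and 7.2 at 240 ug/ml. At 240 ug/ml its log2 fold change was -0.58 (SE 0.12, limma adjusted p = 0.00294), or -0.19 (limma adjusted p = 0.220) with equal totals. RAB40A and RAB40C were 0.05 and -0.14 at 240 ug/ml and not called. RAB19, a little studied member of low level, had 2.0, 2.3 and 3.3 in control, 2.8, 2.5 and 2.4 at 60, 1.1, 1.7 and 1.8 at 120, and 1.1, 0.6 and 1.3 at 240 ug/ml. RAB19 is ENSG00000146955.10 on the plus strand of chromosome 7, 140404043 to 140426250. The 240 ug/ml libraries lay below control, at -0.82 (SE 0.19, limma adjusted p = 0.00467). It shares exonic bases with SLC37A3 on the opposite strand, and no source used here gives the strand setting of the counting. RAB39A, linked to phagosomes and autophagy, had 1.5, 1.4 and 1.8 in control, 2.3, 2.2 and 1.8 at 60, 2.9, 2.5 and 2.3 at 120, and 2.6, 2.9 and 2.5 at 240 ug/ml. RAB39A is ENSG00000179331.2 on the plus strand of chromosome 11, 107928503 to 107963482. The 120 and 240 ug/ml libraries lay above control, at 0.47 and 0.52 (SE 0.13, limma adjusted p = 0.00709). The first of these calls was lost without 120 ug/ml replicate 1 or control replicate 2 (limma adjusted p then 0.0505 to 0.0570). RAB42 was lower at 240 ug/ml (-0.47, limma adjusted p = 0.0346), lost without 240 ug/ml replicate 1 or 3 or control replicate 1, 2 or 3 (limma adjusted p then 0.0525 to 0.102) and with equal totals, at -0.23 (limma adjusted p = 0.316). RAB36 was called at no dose. With equal totals at 240 ug/ml, RAB19 was -0.56 (limma adjusted p = 0.0305), and the members called higher stayed so: RAB39A was 0.80, RAB8B 0.95, RAB3B 0.83, RAB12 0.83 and RAB14 0.69. Exonic bases are shared with another annotated gene by 31 of the 62 members, 28 of them among the 53 tested. RAB5B, RAB11B, RAB12, RAB17 and RAB21 share them with a gene on the opposite strand, and RAB5C with genes on both strands.

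**Figure D2:**
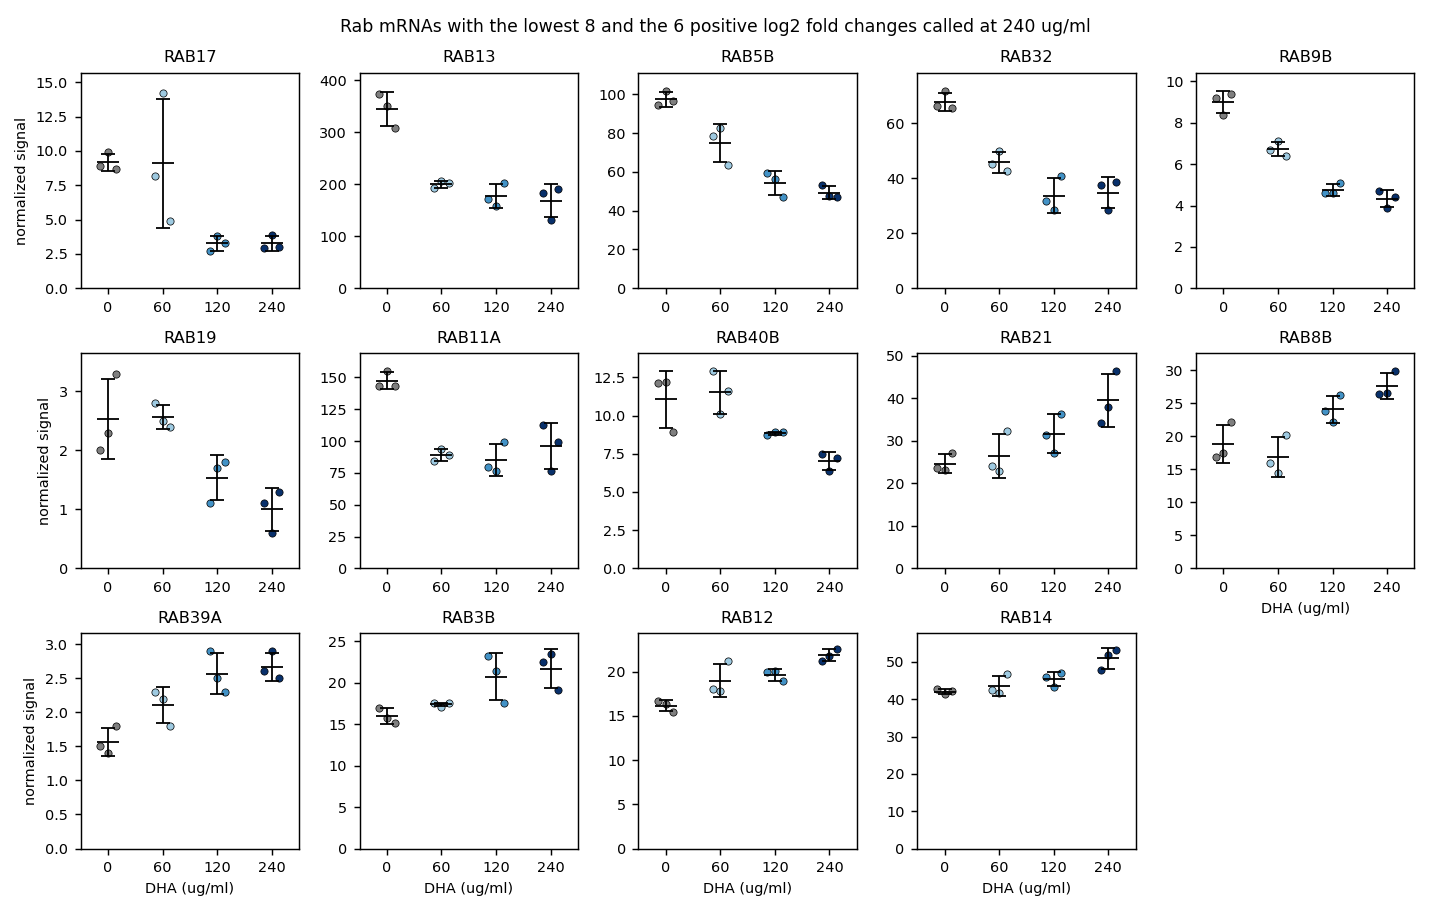
Normalized signal on the y axis (starting at 0, own scale per panel) against DHA dose on the x axis for the 8 members with the lowest and the 6 with the highest called log2 fold changes at 240 ug/ml. Points are libraries and bars are mean ± SD of 3; in every panel the 3 libraries at 240 ug/ml do not overlap the 3 in control, and with equal library totals RAB11A and RAB40B are not called.

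Between the ends of the dose range, 17 members differed at 240 against 60 ug/ml (32.1%, against 24.8% of all genes), 7 higher (11.7% of all genes) and 10 lower (13.1%). With equal totals these were 15 and 6 (24.2% and 5.27%). The libraries of these doses did not overlap for 12 members above and 16 below (17.7% and 19.8% of all genes). The count of calls moved with single libraries: it was 10 without 60 ug/ml replicate 1, 10 without 60 ug/ml replicate 2 and 10 without 240 ug/ml replicate 3, and 9 of the 17 calls (RAB1B, RAB5B, RAB5C, RAB8B, RAB9B, RAB15, RAB17, RAB19 and RAB40B) held whichever library was left out. The other 8 lost it without at least 1 library, with a limma adjusted p of up to 0.135. The higher ones were RAB8B (0.69), RAB21 (0.57), RAB23 (0.45), RAB10 (0.44), RAB6A (0.35), RAB14 (0.22) and RAB5A (0.22). RAB10, which brings transporters such as GLUT4 to the surface, had 85.2, 82.5 and 86.5 in control, 70.3, 72.2 and 79.2 at 60, 80.5, 71.2 and 95.8 at 120, and 97.6, 93.0 and 112 at 240 ug/ml. Its 240 ug/ml libraries lay above every 60 ug/ml library while the 120 ug/ml libraries overlapped both. RAB6A, the main Rab of transport within and from the Golgi, had 40.9, 43.8 and 42.8 in control, 35.9, 31.9 and 37.4 at 60, 37.0, 33.7 and 41.9 at 120, and 43.1, 43.3 and 48.4 at 240 ug/ml, with its lowest mean also at 60 ug/ml. The RAB21 call against 60 ug/ml was lost without 60 ug/ml replicate 1 or 2 or 240 ug/ml replicate 3 (limma adjusted p then 0.0759 to 0.0830). The lower ones were RAB17 (-1.14, SE 0.26, limma adjusted p = 0.0106), RAB19 (-0.85), RAB40B (-0.64), RAB5B (-0.59), RAB9B (-0.54), RAB5C (-0.48), RAB15 (-0.43), RAB1B (-0.40), RAB4B (-0.31) and RAB34 (-0.30). In 9 members (RAB2A, RAB5A, RAB6A, RAB8B, RAB10, RAB22A, RAB23, RAB28 and RAB31) the mean was below control at 60 ug/ml and higher at each next dose, a pattern found in 15.4% of all tested genes. Means ordered upward with dose were found in 5 members and downward in 9 (13.7% and 16.3% of all genes).

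Related Rabs were compared within each library as the log2 ratio of value + 1, in which a library's scaling largely cancels. The pairs were chosen with earlier results of these data known, so their p-values give no independent support. RAB7A and RAB9A serve different routes from late endosomes, and RAB9A with RAB9B was not among the pairs. Of 15 pairs, 4 differed between the 9 DHA and the 3 control libraries after adjustment over the pairs, in a two-sided exact permutation test whose smallest p is 0.00455. Genes of the pairs that passed are shown by the end of their coding sequence, the last 36 bases before the stop codon in the leading complete coding transcript (GENCODE release 29, 5′ to 3′), with cysteine codons in capitals because the lipid anchor is attached to cysteines at this end.
RAB5B: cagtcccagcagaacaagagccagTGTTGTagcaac
RAB11A: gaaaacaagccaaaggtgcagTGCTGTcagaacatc
RAB11B: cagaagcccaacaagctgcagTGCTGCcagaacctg
RAB32: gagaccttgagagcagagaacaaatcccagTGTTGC
RAB38: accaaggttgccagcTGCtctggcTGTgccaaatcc
RAB7A: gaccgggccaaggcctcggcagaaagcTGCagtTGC
RAB9A: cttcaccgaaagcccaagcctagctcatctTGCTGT
RAB5B ends in adjacent cysteine codons followed by 2 more codons, RAB11A and RAB11B in adjacent cysteine codons followed by 3 more, RAB32 and RAB9A in the adjacent pair itself, RAB7A in cysteine, 1 other codon, cysteine, and RAB38 in a cysteine codon followed by 3 others. Among the 53 tested members these classes held 11 (the adjacent pair followed by 1 to 3 codons), 14 (the pair itself), 17 (cysteine, any, cysteine) and 10 (1 cysteine and 3 more), and the leading transcript of RAB30 ended in another way. Over their aligned bases, coding sequences were 78.1% identical for RAB5B and RAB5C, 73.2% for RAB11A and RAB11B, 74.1% for RAB32 and RAB38, and 65.5% for RAB7A and RAB9A, and their leading transcripts shared 0 stretches of 31 bases. The leading RAB11A transcript has a short coding part of 438 nt, against 654 nt for RAB11B.

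RAB11A over RAB11B was 0.58, 0.57 and 0.60 in control, -0.48, -0.11 and -0.15 at 60, -0.31, -0.49 and 0.01 at 120, and 0.24, -0.38 and 0.10 at 240 ug/ml. Thus RAB11A was the lower of the pair in 6 of 9 DHA libraries and the higher one in control. The difference of DHA from control was -0.76 (exact permutation p = 0.00455, adjusted p = 0.0227). RAB11B itself had 95.9, 104 and 94.3 in control, 118, 102 and 99.1 at 60, 99.3, 108 and 99.1 at 120, and 95.3, 99.9 and 92.6 at 240 ug/ml, overlapping control at each dose. Equal totals made RAB11B a higher call at 120 ug/ml, at 0.42 (limma adjusted p = 0.00757), and at 240 ug/ml, at 0.40 (limma adjusted p = 0.00820). RAB32 over RAB38 was 3.0, 2.96 and 2.98 in control, 2.47, 2.36 and 2.23 at 60, 2.09, 2.25 and 2.62 at 120, and 2.20, 1.91 and 2.34 at 240 ug/ml. All DHA libraries lay below control, a difference of -0.71 (exact permutation p = 0.00455, adjusted p = 0.0227). RAB38, needed for melanosomes as RAB32 is, had 7.4, 8.3 and 7.4 in control, 7.3, 8.9 and 8.3 at 60, 6.7, 5.2 and 5.8 at 120, and 7.4, 6.8 and 6.8 at 240 ug/ml. RAB5B over RAB5C was -1.23, -1.15 and -1.20 in control, -1.43, -1.35 and -1.76 at 60, -1.56, -1.51 and -2.0 at 120, and -1.68, -1.46 and -1.74 at 240 ug/ml. Here too the DHA libraries lay below control, a difference of -0.42 (exact permutation p = 0.00909, adjusted p = 0.0341). This call was lost without 120 ug/ml replicate 1 (adjusted exact permutation p = 0.0682) and with protein-coding transcripts alone (adjusted exact permutation p = 0.0852). RAB7A over RAB9A was 2.07, 2.28 and 2.29 in control, 2.62, 2.58 and 2.40 at 60, 2.58, 2.65 and 2.72 at 120, and 2.71, 2.68 and 2.75 at 240 ug/ml. This ratio was above control in all 9 DHA libraries, a difference of 0.42 (exact permutation p = 0.00455, adjusted p = 0.0227). No pair passed without one of the control libraries, and 2 control libraries allow no p below 0.0182. The lowest adjusted exact permutation p was then 0.0682 without control replicate 1, 0.0909 without replicate 2 and 0.0909 without replicate 3. Without 120 ug/ml replicate 3 the RAB4A and RAB4B pair also passed.

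**Figure D3:**
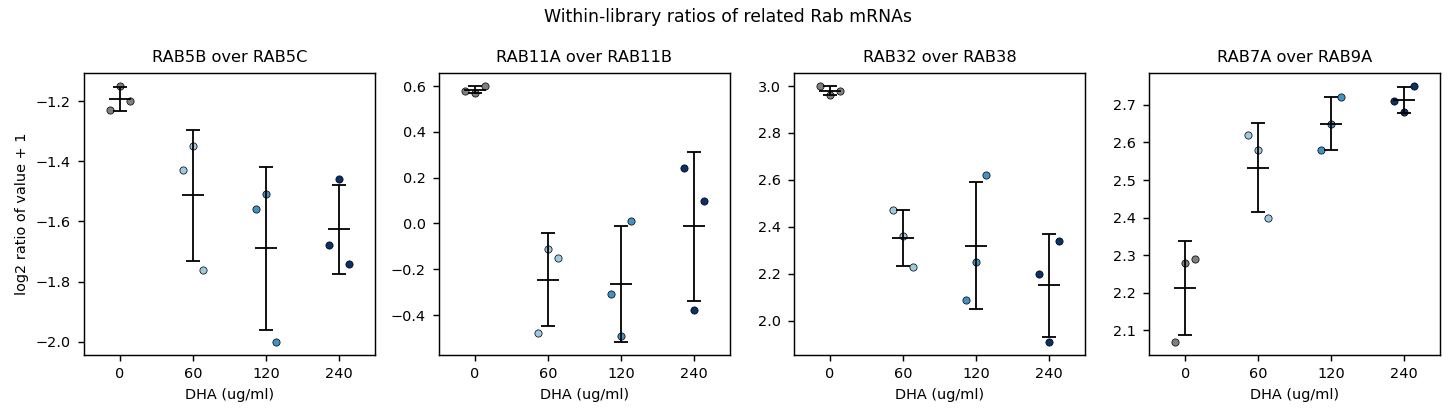
Log2 ratio of (value + 1) between related Rab genes within each library on the y axis, against DHA dose on the x axis, for the 4 pairs that passed. Points are libraries and bars are mean ± SD of 3; the DHA libraries lie below control for RAB5B over RAB5C, RAB11A over RAB11B and RAB32 over RAB38, and above it for RAB7A over RAB9A.

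The table is by transcript, and 163 Rab transcripts of 52 genes could be tested at 240 ug/ml against control. Of these 40 were called (24.5%, against 20.7% of all transcripts), 11 higher (9.87% of all transcripts) and 29 lower (10.9%); without control replicate 2 there were 22, and with equal totals 32 were higher and 9 lower (25.5% and 4.87% of all transcripts). In 2 genes, RAB34 and RAB7A, transcripts were called in opposite directions, and the share of all genes with such calls was not counted. RAB34-210, a protein-coding transcript of 863 nt, had 11.8, 6.2 and 6.6 in control, 14.1, 15.5 and 22.6 at 60, 15.8, 10.9 and 16.2 at 120, and 22.9, 12.7 and 27.4 at 240 ug/ml. Its log2 fold change at 240 ug/ml was 1.24 (SE 0.30, limma adjusted p = 0.0142). RAB34-204, the most abundant RAB34 transcript, had 56.3, 56.7 and 52.5 in control, 63.8, 56.1 and 57.3 at 60, 40.6, 44.9 and 42.5 at 120, and 43.1, 35.2 and 33.8 at 240 ug/ml. It was lower at -0.56 (limma adjusted p = 0.00311). RAB34-206 had 33.7, 34.7 and 35.5 in control, 28.3, 33.7 and 26.3 at 60, 20.2, 17.5 and 20.3 at 120, and 22.6, 18.5 and 20.6 at 240 ug/ml, and was also lower, at -0.73 (limma adjusted p = 0.00123). RAB34-210 thus held 13.6% ± 4.57 of the gene's signal at 240 ug/ml and 4.29% ± 1.49 in control (SD, n = 3 each). RAB7A-202, of 576 nt, was at 12.9, 5.4 and 29.8 at 240 ug/ml and listed at 0 in the 3 control libraries, in 2 of 3 at 60 and in 1 of 3 at 120 ug/ml. The main transcript RAB7A-201 had 168 ± 14.2 at 240 ug/ml and 182 ± 7.92 in control and was not called (-0.11, limma adjusted p = 0.487). RAB7A-202 passed the filter through 120 and 240 ug/ml libraries alone, and RAB7A-208, called lower, was at most 1.0 in any library. The opposite calls of RAB7A thus depend on the filter. Most of RAB21 was a transcript annotated as a retained intron, RAB21-202 of 761 nt, which held 82.4% ± 1.78 of the gene at 240 ug/ml and 84.1% ± 1.16 in control. The long coding transcript RAB21-201 of 15546 nt was itself higher at 0.56 (SE 0.14, limma adjusted p = 0.0160). RAB6A-202 and RAB11B-202 were called higher (0.52 and 0.54) although their genes were not. In the other direction, RAB2B-201 (-0.35), RAB6B-201 (-0.40), RAB24-201 (-0.65) and RAB27A-201 (-0.34) were called lower although their genes were not called.

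**Figure D4:**
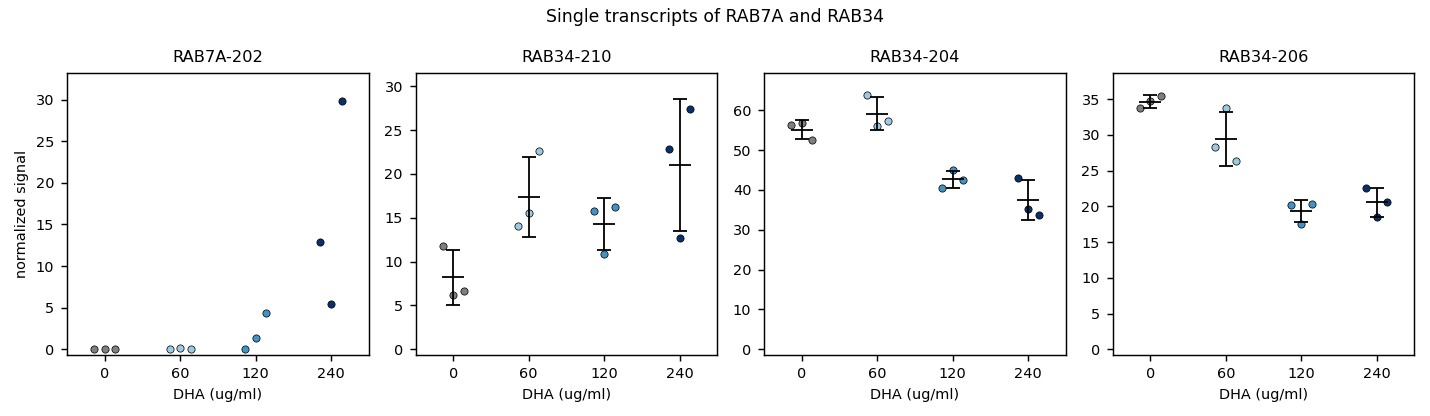
Normalized signal of 4 transcripts on the y axis (own scale per panel) against DHA dose on the x axis. Points are libraries; bars, drawn for the RAB34 transcripts, are mean ± SD of 3. RAB7A-202 is listed at 0 in control, RAB34-210 is higher and RAB34-204 and RAB34-206 are lower at 240 ug/ml than in control.

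Fold changes of the members went along with transcript length and base composition, which is given as a description over 53 genes of the same libraries. At 240 ug/ml against control, log2 fold change and log2 length correlated at r = 0.51 (rho 0.55) over the members and r = 0.09 over all genes, and with GC content at r = -0.39 (rho -0.42) and -0.11. At 240 against 60 ug/ml the correlation with GC content was r = -0.71 (rho -0.74) over the members and -0.40 over all genes. At 60 ug/ml against control it had the opposite sign, r = 0.39 (rho 0.45) over the members and 0.26 over all genes. RAB8B, RAB21 and RAB23, called higher at 240 against 60 ug/ml, had mean transcript GC contents of 37.3%, 36.4% and 36.3%, and RAB17 and RAB40B, called lower, 58.5% and 57.4%, although RAB9B, also lower, had 39.5%. When the GC trend of each library was taken out, 6 of the 17 calls at 240 against 60 ug/ml remained: RAB8B higher, and RAB17, RAB19, RAB40B, RAB5B and RAB9B lower. Against control at 240 ug/ml the same correction left 21 of the 24 calls and added 1. The part of length or composition in these differences was not tested beyond these corrections.

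**Figure D5:**
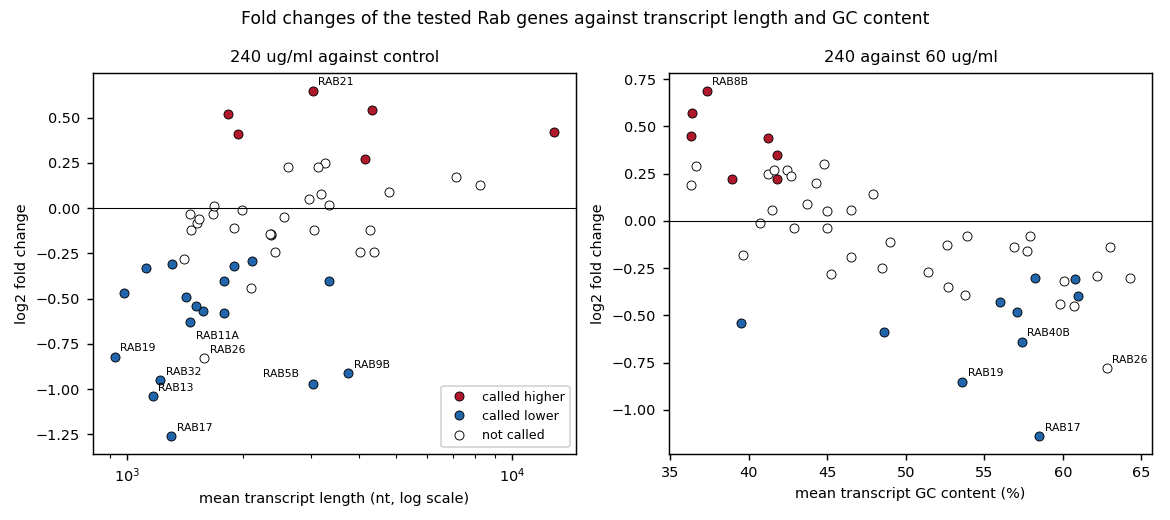
Left, log2 fold change at 240 ug/ml against control (y) and mean transcript length in nt (x, log axis); right, log2 fold change at 240 against 60 ug/ml (y) and mean transcript GC content in percent (x). Points are the 53 tested Rab genes, red called higher, blue called lower, white not called; short transcripts and, on the right, GC-rich ones lie lower.

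Promoter windows of 250 bases before to 50 after the start (RefSeq, GRCh38.p14) were found for 44 of the 53 tested members. The GC box GGGCGG, bound by SP family factors and common in housekeeping promoters, stood on either strand in 86.4% of them and in 44.6% of 27305 windows. These windows outnumber the 16789 tested genes, and the share over tested genes alone was not counted for any motif. The ETS core CCGGAAG was in 20.5% (10.7% of all windows), the E-box CACGTG in 13.6% (7.43%), and TCACGTGA, which contains the E-box and is the core of the CLEAR element of lysosomal genes, in 4.55% (1.04%), in RAB21 and RAB5A. AP-1 sites, TGANTCA, were in 6.82% (7.76%). The windows of the members with the lowest and the highest log2 fold change at 240 ug/ml are printed 5′ to 3′ on the gene's strand, with the ETS core of RAB17 (read on the other strand) and the TCACGTGA of RAB21 in capitals.
RAB17, chr2:237590685-237590984, minus strand: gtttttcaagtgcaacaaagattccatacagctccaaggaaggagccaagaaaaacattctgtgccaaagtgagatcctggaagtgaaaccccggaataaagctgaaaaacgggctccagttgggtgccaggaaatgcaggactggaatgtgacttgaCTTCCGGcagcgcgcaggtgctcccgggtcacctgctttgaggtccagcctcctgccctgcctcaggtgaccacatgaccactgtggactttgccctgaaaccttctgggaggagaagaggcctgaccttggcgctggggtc
RAB21, chr12:71754613-71754912, plus strand: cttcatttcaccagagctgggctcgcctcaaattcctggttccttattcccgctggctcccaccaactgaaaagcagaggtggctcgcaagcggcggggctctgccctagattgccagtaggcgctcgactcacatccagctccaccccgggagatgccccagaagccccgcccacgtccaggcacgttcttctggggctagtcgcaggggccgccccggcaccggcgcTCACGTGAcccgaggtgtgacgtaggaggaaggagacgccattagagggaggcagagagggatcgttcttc
The RAB17 window lies at a RefSeq start within the GENCODE gene, and it was among the 6 member windows without a GC box. A match is a run of letters and not a measured site, and no binding was measured here.

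Genes that prenylate, load, switch off and bind Rabs are described by list at 240 ug/ml against control, where 43.1% of all tested genes were called, 19.7% higher and 23.5% lower, and with equal totals 43.1% higher and 9.05% lower. The values of single genes below are log2 fold changes. Of 11 genes of prenylation and membrane extraction, 2 were called higher and 5 lower at 240 ug/ml (median log2 fold change -0.07, all genes -0.03), or 6 and 4 with equal totals. RABAC1, the acceptor that releases Rabs from GDI, had 102 ± 23.3 at 240 ug/ml and 244 ± 13.7 in control (-1.26, limma adjusted p = 6.36e-05), and its relative PRAF2 was -1.0. PDE6D, which carries prenylated proteins through the cytosol, was -0.94. Higher were the escort protein gene CHML (0.55) and RABGGTB (0.29), the catalytic subunit of the geranylgeranyl transferase. Of 37 GEFs tested, 9 were higher and 9 lower (median 0.01), or 20 and 3 with equal totals. RIN1 (0.81) and GAPVD1 (0.65), which act on RAB5, and DENND1A (0.75), which acts on RAB35, were higher, and DENND2A (-1.08), DENND6B (-0.98) and DENND1C (-0.87) lower. Of 38 GAPs tested, 6 were higher and 8 lower (median -0.02), or 25 and 1 with equal totals. Among them were RAB3GAP2 (0.50), EVI5 (0.48), a GAP of RAB11, and TBC1D4 (0.33), a GAP of RAB10 in the insulin response, on the higher side, and TBCK (-0.92), TBC1D7 (-0.85) and TBC1D22B (-0.52) on the lower. Of 62 effectors and tethers tested, 19 were higher and 12 lower (median 0.10), or 35 and 1 with equal totals. MLPH, melanophilin, which links RAB27A to myosin, had 122 ± 16.8 at 240 ug/ml and 57.0 ± 8.81 in control (1.09, limma adjusted p = 1.16e-04), and ACAP2 (0.81), a RAB35 effector, and RPH3AL (0.71), which binds RAB3 and RAB27, were also higher. RAB11FIP1, an effector of RAB11, had 21.2 ± 0.513 at 240 ug/ml and 45.4 ± 3.32 in control (-1.06, limma adjusted p = 3.43e-05), and the RAB5 effector APPL2 (-0.63) and the RAB1 effector GOLGA2 (-0.59), the Golgi tether GM130, were also lower. With equal totals TBCK, TBC1D22B, APPL2 and GOLGA2 were not called.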

How the data were processed

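RNA of HK-2 cells was sequenced by the submitters from 12 libraries, 3 in each of 4 groups, after 72 h with DHA or as control. The deposited table gives, per the file headers, 1 normalized signal for each of 267165 Ensembl transcripts and library. Its unit is named in no source used here: totals differ between libraries but have a geometric mean of 999925, and the signal was read as TPM divided by a library factor. The genome build is GRCh38.p14, per the submitters' processing notes; the sources used here give no aligner, quantifier, annotation or strand setting. Depth is unknown, so no counting interval is given.

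Transcripts were matched without version to GENCODE release 29 (202305, or 75.7%, holding 93.8% to 94.7% of each total) and summed to 57527 genes. Genes with at least 1 in at least 3 libraries were tested with limma 3.58.1 (R 4.3.3) on log2(value + 1) in 1 model of the 4 groups, with a mean-variance trend and Benjamini-Hochberg adjustment over 16789 genes at 0.05, two-sided; fold changes are on that scale, which understates low genes. A count model was planned first, with this fit for normalized values, which is the one the unit needs. Transcripts were fitted likewise (54340). Paralog ratios were tested by exact permutation of 9 DHA against 3 control libraries (220 orders). The fits were tested on simulated data. Python 3.11.15, pandas 2.3.3, scipy 1.17.1 and Biopython 1.88 were used.

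The rule for named genes took the 8 members with the lowest and, up to 8, those with the highest called log2 fold changes at 240 ug/ml, the 3 of highest level, both genes of each pair that passed, and up to 3 called genes a direction of each list. The members, roles, pairs and lists were chosen with earlier results of these data known. The promoter motifs and the role of RAB6C and RAB6D were set after values were seen, as were the other members given in the text. RAB44 lies outside the rule and was listed at 0. Alternatives were other pseudocounts (0.1 and 5), filters and scalings, protein-coding transcripts alone, length and GC trends subtracted per library (lowess span 0.3), the replicate block, the 2 groups compared alone, and each library left out. Promoters are from RefSeq and coding ends from GENCODE sequence. A few items of these lists and sequences are not reported here.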

Additional observations from a re-analysis of the deposited data

How the results depend on the processing

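Equal library totals had the widest effect on single genes, and a pseudocount of 0.1 or 5 changed none of the 73 gene-level calls. With equal totals 40 of those calls kept their direction and side of the threshold, 23 were lost and 10 changed sign: at 120 ug/ml against control RAB5C (0.03), RAB34 (0.08), RAB15 (0.07) and RAB5A (0.11), and at 240 ug/ml RAB2A (0.14), RAB34 (0.12), RAB1A (0.04), RAB15 (0.01), RAB4B (0.08) and RAB1B (0.11). At 240 against 60 ug/ml RAB14 became -0.05 with the GC trend subtracted and -0.12 with the replicate block and both trends, where RAB4B became 0.02. The count at 60 ug/ml fell to 7 with equal totals and 7 with the GC trend subtracted; that at 240 against 60 ug/ml was 6 with the GC trend, 11 with the block and both trends, and 9 with the 2 groups alone; the count over all groups was 20 with the GC trend. The cause was not tested. Of the 73 calls, 65 held with quantile normalization, 57 with the length trend subtracted, 49 with the GC trend, 59 without a filter, 59 with the 2 groups alone, 69 with protein-coding transcripts and 67 with a minimum of 5, where 6 were not tested. Leaving out 1 library gave 5 to 11 calls at 60, 11 to 20 at 120 and 20 to 25 at 240 ug/ml, 10 to 23 at 240 against 60 ug/ml, 21 to 32 over all groups, 22 to 36 transcripts and 0 to 5 pairs.

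Libraries of the same replicate number deviated together in part. Their deviations from the group means correlated at -0.03 to 0.24 over 18 pairs, of which 6 were over 0.1, against 1 of 36 pairs of other numbers (-0.21 to 0.11). Replicate 3 held 4 of the 6 (0.04 to 0.24 over its 6 pairs), replicate 2 held 2 (-0.03 to 0.14) and replicate 1 held 0 (0.02 to 0.06), and 9 of 12 libraries correlated best with their own number. No label gives the numbers a meaning and not every pair was over 0.1, so the block was kept as an alternative; a shared source of the replicate 3 libraries was not tested. A fit with the replicate number as a block gave 12, 26 and 29 calls at 60, 120 and 240 ug/ml, 25 at 240 against 60 ug/ml, 33 over all groups and 47 transcripts, and lost none of the 73 calls. Without counts, the depth behind low values such as those of RAB17, RAB19 and RAB39A is unknown, and a single decimal limits them further.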

Other observations

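The Arf family, the other large group of vesicle GTPases, gave the following values. Of 21 Arf and Arf-like genes tested, 3 were called higher and 7 lower at 240 ug/ml (19.7% and 23.5% of all tested genes; median log2 fold change -0.06, all genes -0.03), and 9 and 4 with equal library totals (43.1% and 9.05% of all genes). ARF6, which acts at the plasma membrane and in endocytic recycling, had 67.2 ± 0.643 at 240 ug/ml and 49.6 ± 0.252 in control (log2 fold change 0.43, limma adjusted p = 0.00166). ARL6, a component of ciliary cargo transport, was also higher, at 0.37. ARL3, which releases prenylated and other lipid-bearing proteins from their carriers in cilia, had 7.70 ± 1.15 at 240 ug/ml and 15.2 ± 1.07 in control (log2 fold change -0.91, limma adjusted p = 1.35e-04). ARL2 (-0.81) and ARF4 (-0.80), an Arf of the Golgi, were lower too. These 5 calls kept their direction and side of the threshold with equal library totals.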
